A study of Mus musculus with 2 samples.

Results

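The Hedgehog core is described here by 9 mouse genes: the ligand genes Shh, Ihh and Dhh, the receptor gene Ptch1, the signal transducer gene Smo, the ligand trap gene Hhip, and the transcription factor genes Gli1, Gli2 and Gli3. They were chosen by gene symbol, and all 9 were present among the 23562 genes of the deposited table. The values come from RNA sequencing of mouse mammary tumour cells of the line AS0574. The first form, called Rnf8-null here (LL3 in the labels), has the labelled genotype Rnf8-/-;Trp53 delta/delta. The second, called complemented here (LL3WT), has the same genotype with Rnf8 put back. Loss of the endogenous Rnf8, a ubiquitin ligase of the DNA break response, and of Trp53, which encodes p53, is therefore shared by both forms, and neither is a cell with intact Rnf8. Each form had 1 library, so no test between conditions was possible, no p-value was computed, and the text speaks of higher and lower levels in these libraries only. The sources used here do not say whether either form was 1 clone.

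Hedgehog proteins are lipid-modified secreted ligands that bind the membrane protein Ptch1. Free Ptch1 holds Smo inactive, and ligand binding releases Smo, which acts in the primary cilium to turn Gli2 and Gli3 from repressors towards activators. Ptch1, Gli1 and Hhip are themselves transcribed in response to the signal, and Ptch1 and Hhip then limit it. In the mouse mammary gland the pathway is mostly held off in the epithelium, and repression by Gli3 is needed when the mammary buds form.

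Of the 9 genes, Dhh was much higher in Rnf8-null cells and Ptch1 much higher in complemented cells. Smo was abundant in both, Gli3 was present in both at a lower level, and Shh, Ihh, Hhip, Gli1 and Gli2 had at most 30 reads in either library. Levels are given as RPKM, that is, reads divided by gene length in kilobases and by the size of the library. Differences are on the log2(RPKM + 1) scale, Rnf8-null minus complemented, and a call of higher or lower needed a gene to differ at least 2-fold on that scale with a mean of at least 1 RPKM. Added to a low level, 1 RPKM shrinks a difference, so ratios of reads per library total are given too, with exact 95% intervals that cover counting error only. Where a pair of values is joined by "against", the first is from Rnf8-null cells.

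The regions upstream of Dhh and Ptch1 are shown because these 2 genes were past the 2-fold rule, in opposite directions. Each is the 250 bases before the RefSeq start of the gene on GRCm38.p6, read 5′ to 3′ on the minus strand, at chr15:98898541-98898790 for Dhh and chr13:63565736-63565985 for Ptch1. Capitals mark the letters GGGCGG, a GC box, or their reverse complement CCGCCC.
Dhh: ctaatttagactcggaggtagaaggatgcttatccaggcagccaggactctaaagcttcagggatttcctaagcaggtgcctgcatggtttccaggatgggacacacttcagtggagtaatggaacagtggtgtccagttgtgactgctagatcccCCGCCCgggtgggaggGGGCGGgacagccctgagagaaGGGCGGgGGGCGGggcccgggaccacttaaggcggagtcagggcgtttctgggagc
Ptch1: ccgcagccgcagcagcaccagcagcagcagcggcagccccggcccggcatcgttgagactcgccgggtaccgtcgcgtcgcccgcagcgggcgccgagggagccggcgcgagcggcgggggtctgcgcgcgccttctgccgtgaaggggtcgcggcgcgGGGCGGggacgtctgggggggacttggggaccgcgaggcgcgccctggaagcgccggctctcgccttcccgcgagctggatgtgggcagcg

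The Ptch1 window had 78.4% G and C and 41 CpG pairs, and the Dhh window 59.6% and 9 pairs, against a median of 52.4% G and C over all 32851 RefSeq windows of this length. A GC box was found on at least 1 strand in both, as in 32.7% of all windows. The Gli binding consensus GACCACCCA, or its reverse complement TGGGTGGTC, was in 74 of all windows (0.225%) and in neither of these 2, nor in the windows of Ihh, Smo, Hhip, Gli2 and Gli3. Shh and Gli1 are not in the set of windows used here. The Ptch1 window lies inside the longer gene annotated by GENCODE vM21 but overlaps none of its exons.

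Both libraries were deep, with 57263401 counted reads in Rnf8-null cells and 48607808 in complemented cells. Rnf8 itself stood at 10.5 RPKM in Rnf8-null cells and 596 RPKM in complemented cells, which goes with the labels. Trp53, labelled delta/delta in both, had reads in both (1075 and 696, 6.15 against 4.69 RPKM), within 2-fold. For neither gene do the reads per gene show the deleted part. The libraries differed far beyond Rnf8. Of 12609 genes counted, 14.8% were called higher and 15.9% lower in Rnf8-null cells, 30.7% in either direction, and the median difference was -0.17. TMM scaling moved differences by a median of 0.20, and with it 58.4% of the calls were in the higher direction, against 48.1% with scaling to the library total.

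Cell type markers separated the libraries, although the labels give 1 line. Of 12 luminal epithelial markers, 9 were called higher and 1 lower in Rnf8-null cells, with summed levels of 4384 against 10.9 RPKM and Pgr at 0 reads in complemented cells. Krt18, a keratin of simple epithelia, stood at 1762 against 0.294 RPKM. The luminal marker called lower was Gata3 (0.191 against 7.99 RPKM), and Esr1, below the filter, had 20 against 106 reads. Of 9 basal markers 4 were higher and 0 lower (summed 564 against 1.14 RPKM, with Krt5 at 0 reads in complemented cells). The other 5 were below the filter. Trp63 had 3 against 48 reads, Acta2 5 against 18, Myh11 4 against 19, Oxtr 4 against 18 and Cnn1 18 against 8. Of 12 mesenchymal and fibroblast markers 6 were lower and 1 higher, with summed levels of 941 against 1157 RPKM and none at 0. Most of both sums came from Vim and from S100a4, the higher one (562 against 209 RPKM). The largest differences were those of Col3a1 (0.0342 against 140 RPKM), Pdgfrb (0.0389 against 46.6) and Twist1 (0.0214 against 19.5). Of the 4 below the filter, Col1a2 had 24 against 899 reads and Thy1 1 against 8. Pdgfra, with 54 against 27 reads, and Fap, with 8 against 1, lay in the other direction. Vim, a mesenchymal filament, was abundant in both (376 against 725 RPKM). The leukocyte marker Ptprc had 0 reads in Rnf8-null cells and 1 in complemented cells. Of the 8 leukocyte markers 1, Cd14, was higher and 0 were lower (summed 182 against 22.4 RPKM, with Cd3e among those at 0 reads in complemented cells). No endothelial marker of 6 reached the filter, their sum was 0.302 against 0.797 RPKM, and Kdr had 0 reads in Rnf8-null cells. Every difference below stands between libraries that also differ in this way, and the part of these markers in it was not tested. In such libraries a smaller share of cells of a type and less RNA per cell cannot be told apart.

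**Figure D1:**
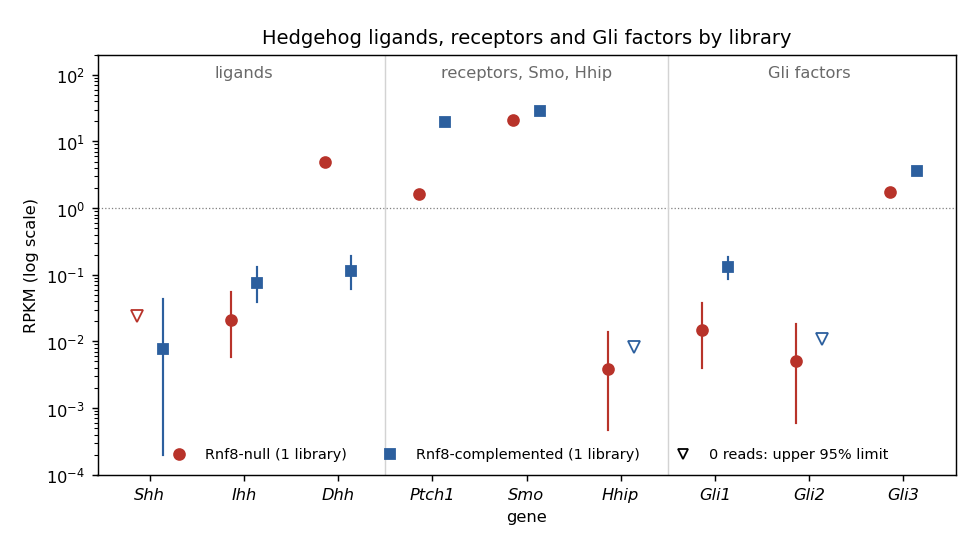
Level of each of the 9 genes in RPKM on a log scale, with circles for the Rnf8-null and squares for the complemented library (1 library each). Lines are exact 95% Poisson intervals on the reads, open triangles give the upper limit of that interval where there were 0 reads, and the dotted line is 1 RPKM. Dhh and Ptch1 lie on opposite sides, at 4.99 against 0.113 and 1.65 against 19.8 RPKM.

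Among the ligands, Dhh was the one with more than a trace of reads, and that in Rnf8-null cells. Dhh, which encodes desert hedgehog and is best known from Sertoli cells of the testis and Schwann cells of nerves, lies on chromosome 15 from 98891152 to 98898540 of GRCm38, on the minus strand. It had 677 reads in Rnf8-null cells (4.99 RPKM, 95% interval 4.63 to 5.39) and 13 in complemented cells (0.113 RPKM, 0.0602 to 0.193). The Rnf8-null library was the higher one, the 2 counting intervals did not overlap, and the ratio of reads per library total was 44.2 (interval 25.7 to 83.5). The log2(RPKM + 1) difference was 2.43, above that of 94.1% of genes counted. Dhh passed the filter on low values through the Rnf8-null library only. Its level there exceeded that of 53.6% of genes with a read, and in complemented cells 21.3%. In GENCODE vM21 Dhh shares 546 exonic bases on the same strand with its neighbour Rhebl1, to which the table gave 456 reads in Rnf8-null cells and 514 in complemented cells. Reads at that neighbour were thus similar in number in both libraries. A larger overlap, of 1107 exonic bases, is with the antisense gene Gm49442 on the opposite strand. No count was given for Gm49442, and the strand setting is not known, so its part in the Dhh reads was not tested.

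Ihh and Shh were close to the limit of detection. Ihh, which encodes the ligand of growing cartilage and lies on chromosome 1 from 74945315 to 74951672, had 4 reads in Rnf8-null cells and 12 in complemented cells, at 0.0213 and 0.0751 RPKM. The complemented library was the higher one by a factor of 3.53, with a wide interval of 1.07 to 15.0. Shh, the ligand of limb and neural tube patterning, on chromosome 5 from 28456815 to 28467256, had 0 reads and 1 read. A count of 0 allows up to 3 reads, or 0.0196 RPKM for Shh in Rnf8-null cells, so no difference in Shh was detectable at this depth. By RPKM, Dhh made up 99.6% of the summed ligand level of 5.02 in Rnf8-null cells. In the complemented library the summed level was 0.196 RPKM, of which Dhh made up 57.7% and Ihh 38.4%.

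Ptch1, the Hedgehog receptor, lies on chromosome 13 from 63508328 to 63573598 on the minus strand. It had 694 reads in Rnf8-null cells (1.65 RPKM, interval 1.53 to 1.77) and 7071 in complemented cells (19.8 RPKM, 19.3 to 20.2). Here the complemented library was the higher one and the counting intervals did not overlap. The ratio was 12.0 in favour of the complemented library (interval 11.1 to 13.0), and the log2 difference of -2.97 was lower than that of all but 2.23% of genes counted. In rank, Ptch1 exceeded 39.3% of genes with a read in Rnf8-null cells and 78.1% in complemented cells. The order of the ligand Dhh and its receptor Ptch1 was thus reversed between the libraries, Dhh being 4.99 against 1.65 RPKM for Ptch1 in the first and 0.113 against 19.8 RPKM in the second.

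Smo, the membrane protein that carries the signal inward, was the highest of the 9 genes in both libraries. The gene, on chromosome 6 from 29735503 to 29761365, had 4815 reads (21.1 RPKM, interval 20.5 to 21.7) in Rnf8-null cells and 5514 (28.5 RPKM, 27.8 to 29.3) in complemented cells. The complemented level was higher by a factor of 1.35 (interval 1.30 to 1.40), within 2-fold. Its log2 difference of -0.42 was -0.20 with TMM scaling, which shifted all genes by a median of 0.20. Smo ranked above 79.5% and 83.9% of genes with a read. Hhip, a membrane-anchored decoy that binds the ligands, on chromosome 8 from 79965851 to 80058006, had 2 reads in Rnf8-null cells and 0 in complemented cells, which is under the 3 reads that a count of 0 allows.

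Of the Gli factors, Gli3 was the one with more than a trace of reads. Gli3, which acts mainly as the repressor of the pathway, lies on chromosome 13 from 15463235 to 15730026. It had 980 reads (1.76 RPKM, interval 1.65 to 1.87) in Rnf8-null cells and 1729 (3.66 RPKM, 3.49 to 3.83) in complemented cells. The complemented library was the higher one by a factor of 2.08 (interval 1.92 to 2.25). On the log2(RPKM + 1) scale the difference was -0.75, short of the 2-fold rule, and with TMM scaling it was -0.59. Gli3 made up 98.9% of the summed Gli level of 1.78 RPKM in Rnf8-null cells and 96.6% of 3.79 RPKM in complemented cells.

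Gli1 is an activator that is itself induced by the signal, and is commonly read as its marker. Located on chromosome 10 from 127329882 to 127341974, it had 4 reads in Rnf8-null cells and 30 in complemented cells, at 0.0146 RPKM (interval 0.00397 to 0.0374) and 0.129 RPKM (0.0870 to 0.184). The complemented library was the higher one by a factor of 8.84 (interval 3.11 to 34.5), but both levels were low, above only 5.84% and 22.2% of genes with a read. The 3′ neighbour Arhgap9 shares 62 exonic bases on the opposite strand and had 612 against 26 reads, the opposite order. A larger overlap, of 265 exonic bases, is with the antisense gene Gm47200, also on the opposite strand. No count was given for Gm47200, so its part in the Gli1 reads was not tested. Gli2, the main activator in mouse development, on chromosome 1 from 118834132 to 119053619, had 2 reads and 0 reads. No fold is given for Gli2, since both counts lie within the 3 reads that a count of 0 allows.

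The 3 members that the Hedgehog signal itself induces were at very different levels. Ptch1 stood at 19.8 RPKM in complemented cells, while Gli1 stood at 0.129 and Hhip at 0 RPKM in the same library. Of these 3 genes, Ptch1 and Gli1 were higher in complemented cells beyond counting error, and no difference was detectable for Hhip at this depth.

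Counted by the 2-fold rule, 1 of the 9 genes was called higher (Dhh) and 1 lower (Ptch1), 2 were within 2-fold (Smo and Gli3) and 5 did not reach a mean RPKM of 1. Of all genes counted, 14.8% were called higher and 15.9% lower. A second rule used reads alone, a 2-fold ratio among genes with at least 50 reads over both libraries. It called Dhh higher and Ptch1 and Gli3 lower, where 18.2% of 14439 genes were called higher and 21.9% lower, 40.1% in either direction. Over all 9 genes without a filter the median log2 difference was -0.07, and over all 23562 genes it was -0.0022. The members nearest to the filter of 1 RPKM were Dhh above it, with a mean of 2.55 RPKM, and Gli1 below it, with a mean of 0.0717 RPKM.

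**Figure D2:**
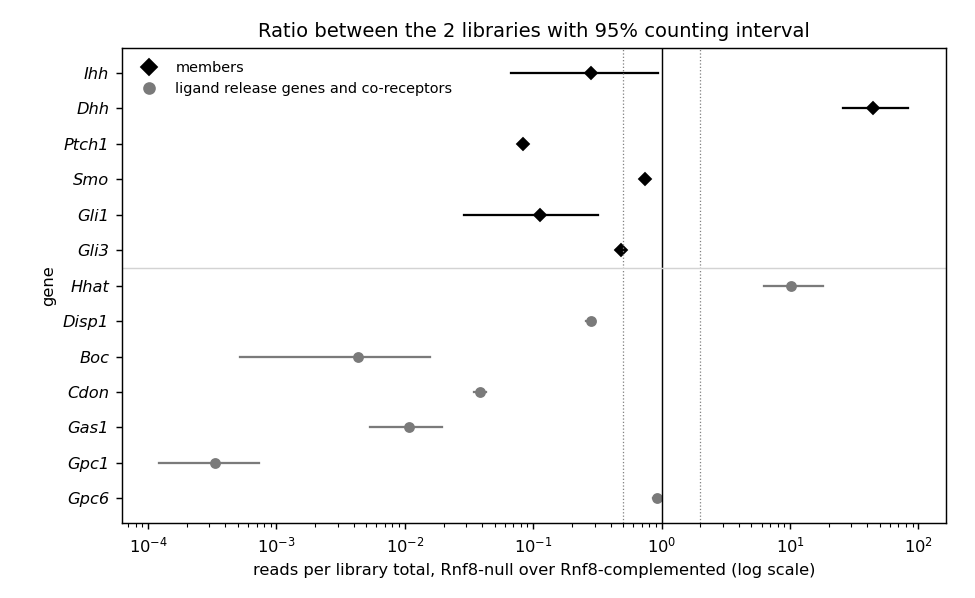
Ratio of reads per library total, Rnf8-null over complemented, on a log scale, with exact 95% counting intervals (1 library per group). Diamonds are the members that allow a ratio, and circles are a chosen part of the ligand release genes and co-receptors. The solid line marks equal levels and dotted lines mark 2-fold. Among genes not drawn, the rule on reads called Hhatl (30.1) and Disp2 (4.06) higher and Scube3 (0.406) lower. Dhh (44.2) and Hhat (10.2) lie to the right, while Ptch1, Gli1, Cdon, Gas1, Boc and Gpc1 lie to the left.

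Genes that make and release the ligand gave mixed values. Of 8 listed, only Disp1 passed the filter. Disp1, the transporter that releases lipid-modified ligand from the producing cell, stood at 2.52 against 8.96 RPKM (773 and 2334 reads) and was called lower in Rnf8-null cells, by a factor of 3.56 (interval 3.28 to 3.86). Hhat, the acyltransferase that attaches palmitate to the ligand, had 205 reads in Rnf8-null cells and 17 in complemented cells. At 1.21 against 0.119 RPKM it was higher by a factor of 10.2 (interval 6.24 to 17.9), the same direction as Dhh. By reads alone 3 of the 5 genes with enough reads were higher (Hhat, Hhatl and Disp2) and 2 lower (Disp1 and Scube3), beside 18.2% higher and 21.9% lower of all genes under that rule. The Hhat homologue Hhatl had 71 against 2 reads, and Scube3, a secreted protein of the family that helps free the ligand, 34 against 71.

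Co-receptors of Ptch1 were higher in complemented cells. Cdon, Boc and Gas1 encode surface proteins that bind the ligand together with Ptch1. Cdon stood at 0.936 RPKM in Rnf8-null cells and 24.3 RPKM in complemented cells (407 and 8975 reads), a factor of 26.0 (interval 23.5 to 28.8). Gas1 stood at 0.0614 against 5.66 RPKM (11 and 862 reads), a factor of 92.3 (51.3 to 186). Boc had 2 reads against 392, a factor of 231 (63.5 to 1913), with a mean RPKM under 1. All 3 thus lay in the direction of Ptch1. Cdon and Gas1, and Gpc1 below, passed the filter through the complemented library only, as did Gpr161, Kif7, Ift57, Bbs7 and Foxf2 further on.

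Gpc1, a glypican (a heparan sulfate proteoglycan of the cell surface), showed the largest ratio of the Hedgehog lists that have reads in both libraries. It had 6 reads in Rnf8-null cells and 15285 in complemented cells, at 0.0295 and 88.5 RPKM, a factor of 3001 (interval 1379 to 8179). Gpc6, another glypican, stood at 4.33 against 4.73 RPKM, within 2-fold. Of the 10 listed co-receptors and binding proteins, 3 were called lower (Cdon, Gas1 and Gpc1), 0 higher, 1 was within 2-fold and 6 did not pass the filter, beside 15.9% lower and 14.8% higher among all genes counted. The 3 called had passed the filter through the library in which they were high, so their count is a description only. Over all 10 listed genes without a filter the median log2 difference was -0.08, beside -0.0022 over all 23562 genes. The endocytic receptor gene Lrp2 had 0 reads against 30.

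Between Smo and the Gli factors, most genes were within 2-fold. Of 30 listed relay genes 27 were counted, 5 were called lower (18.5%), 1 higher (3.70%) and 21 lay within 2-fold, with a median of -0.32. The share called lower was close to the 15.9% of all genes, and 14.8% of all genes were called higher. Gpr161, a ciliary receptor that keeps the pathway off through cAMP, had 4 reads in Rnf8-null cells and 760 in complemented cells, at 0.0328 and 7.34 RPKM, a factor of 224 (interval 87.1 to 824). Kif7, the kinesin that organises the cilium tip for Gli proteins, stood at 0.783 against 4.79 RPKM.

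The protein kinase A catalytic subunits, which phosphorylate Gli proteins and so promote repressor forms, were lower too. Prkacb stood at 11.9 against 29.2 RPKM and Prkaca at 35.4 against 76.4 RPKM, and the arrestin gene Arrb1 at 4.16 against 10.6 RPKM. Prkaca and Arrb1 were within 2-fold with TMM scaling. The gene called higher was Csnk1e, a casein kinase, at 41.2 against 19.5 RPKM. Sufu, which holds Gli proteins in the cytoplasm and is named outside the fixed rule, stood at 4.11 against 3.60 RPKM. Evc had 0 reads in both libraries and Evc2, its partner at the base of the cilium, 0 and 2.

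**Figure D3:**
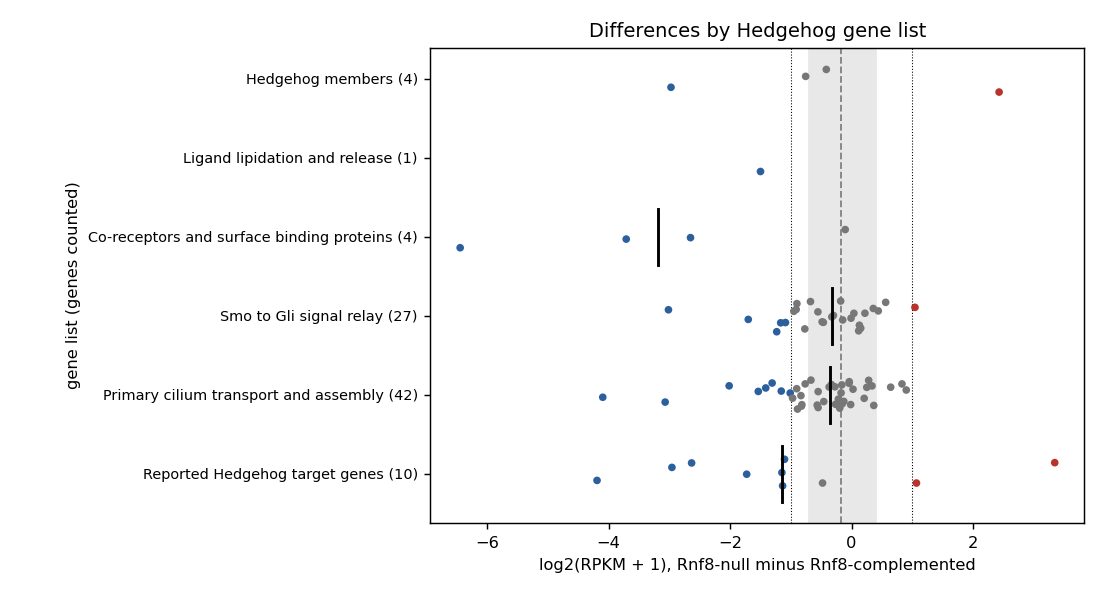
Difference in log2(RPKM + 1), Rnf8-null minus complemented, for each Hedgehog list, over the genes at a mean of 1 RPKM or more (number of genes in brackets). Each point is a gene, red at 1 or more, blue at -1 or less and grey between (vertical jitter only). Short black lines are list medians where drawn, the dashed line is the median of all genes counted (-0.17) and the shaded band their middle quartiles (-0.70 to 0.41). Of the counted genes, 3 of 4 co-receptors and 7 of 10 targets lie at -1 or less and 2 targets at 1 or more, while most relay and cilium genes lie between.

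The primary cilium, in which Smo and the Gli proteins meet, was represented by 46 genes. Of these 42 were counted, 8 were called lower (19.0%, beside 15.9% of all genes), 0 higher (beside 14.8%) and 34 lay within 2-fold, with a median of -0.35. With TMM scaling the median was -0.18, 6 were called lower and 2, Ift43 and Ift88, higher. Of all 12600 genes counted with that scaling, 1551 were called lower and 2181 higher, with a median of 0.03. Among the 8 were components of transport within the cilium. Ift57, a subunit of the anterograde transport complex, had 5 reads in Rnf8-null cells and 2059 in complemented cells, at 0.0344 and 16.7 RPKM, a factor of 485 (interval 208 to 1496). Dync2li1, a light intermediate chain of the retrograde dynein motor, stood at 1.42 against 19.3 RPKM, a factor of 13.6 (11.1 to 16.7).

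Bbs7, a subunit of the BBSome cargo adaptor, stood at 0.521 against 5.14 RPKM, and Arl6, the small GTPase that recruits it, at 4.95 against 16.3 RPKM. Kifap3, an adaptor of the kinesin-2 motor, stood at 5.04 against 15.1 RPKM and Ift80 at 1.91 against 6.19 RPKM. The kinesin-2 motor gene Kif3a, chosen after its values were seen, stood at 6.91 against 7.64 RPKM. Thus 2 cilium genes differed by more than 10-fold in reads while most of the list, the motor Kif3a included, was within 2-fold. The remaining 2 of the 8, Arl13b and Ofd1, were within 2-fold with TMM scaling.

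**Figure D4:**
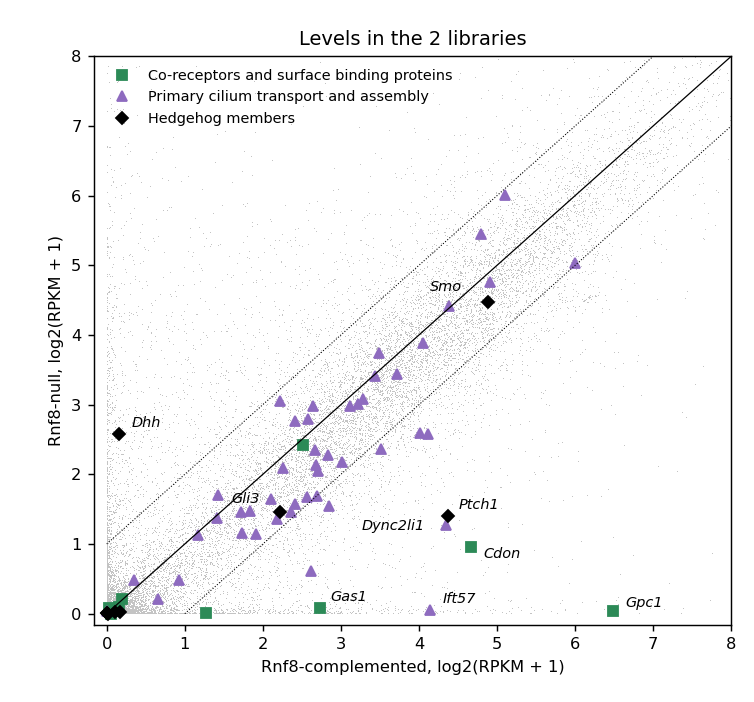
Level in Rnf8-null cells (vertical) against the complemented library (horizontal), both as log2(RPKM + 1), for all genes (grey dots), the 9 Hedgehog members (diamonds), co-receptors (squares) and cilium genes (triangles), 1 library each. The solid line marks equal levels and dotted lines a 2-fold difference, and genes above 8 on either axis are not shown. Dhh lies far above the lines, while Ptch1 lies far below them beside Dync2li1 and Cdon.

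Genes reported as Hedgehog targets in one tissue or another were divided. Of 27 listed besides Ptch1, Gli1 and Hhip, 10 were counted, 7 were called lower in Rnf8-null cells, 2 higher and 1 was within 2-fold, beside 15.9% lower and 14.8% higher of all genes counted. The median of these 10 was -1.14, and over all 27 without a filter it was -0.20, beside -0.17 and -0.0022 over all genes. With TMM scaling 11 were counted, 4 were called lower and 3 higher, and the median was -0.93. Of all 12600 genes counted with TMM scaling, 1551 were called lower and 2181 higher. Foxf2, a forkhead factor of mesenchyme, had 2 reads in Rnf8-null cells and 2014 in complemented cells, at 0.0148 and 17.5 RPKM, a factor of 1186 (interval 328 to 9803). Snai1, a repressor of epithelial genes, stood at 6.94 against 48.2 RPKM, and Spp1, which encodes osteopontin, at 1323 against 10279 RPKM. The mitotic factor gene Foxm1 stood at 7.85 against 28.3 RPKM, Rab34, a GTPase of cilium formation, at 33.4 against 75.1 RPKM, and the cyclin gene Ccne1 at 5.73 against 13.8 RPKM. The last of the 7 was Bmi1, a Polycomb gene, and with TMM scaling Rab34, Ccne1 and Bmi1 were within 2-fold.

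The higher target genes were the cyclin D1 gene Ccnd1 (145 against 13.4 RPKM) and the survival gene Bcl2 (4.20 against 1.48 RPKM). Jag2 had 426 against 22 reads (1.84 against 0.112 RPKM). Its mean of 0.973 RPKM was just below the filter, and with TMM scaling it was called higher too. Pthlh, a parathyroid hormone-related secreted factor with roles in mammary bud formation, had 148 reads in Rnf8-null cells and 4 in complemented cells (1.71 against 0.0544 RPKM), below the filter. Several targets of the neural tube and the gut were hardly read. Nkx2-2 had 0 reads against 63, Foxl1 0 against 26 and Mycn 0 against 12, while Prdm1, Nkx6-1 and Grem1 had 0 reads in both libraries. Most genes in the list are also controlled by other signals, and the mesenchymal and epithelial markers above differed between the same libraries. Their part in these differences was not tested.

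The genes whose pair of levels was nearest to that of each abundant member were found by distance over the 2 libraries on the log2(RPKM + 1) scale, which is a description from 2 points. For Dhh these were Hsd11b1 (5.03 against 0.101 RPKM), Evpl (4.96 against 0.0965) and Iqgap2 (5.10 against 0.0877). For Ptch1 they were Dync2li1, given above, Adcy7 (1.52 against 21.8 RPKM) and Tsc22d2 (1.94 against 20.5). For Gli3 they were Wdr62, Suv39h2 and Tnfrsf21, and for Smo 4930539J05Rik, Kri1 and Mfsd10, all at distances under those of the Ptch1 neighbours.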

How the data were processed

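Total RNA of 2 mammary tumour cell forms was sequenced from Illumina TruSeq libraries, per the labels' protocols, with 1 library each. The table that the authors deposited gives a raw count of reads for every gene, with no normalization, and an RPKM value scaled by gene length and library total. Per the submitters' processing notes, STAR 2.4.0f1 and SAMtools 0.1.18 were among the tools, beside bedtools and DESeq2, and the build was mm10 (GRCm38). Neither the role of each tool nor the annotation and strand setting of the counting is given in the sources used here, so reads of overlapping genes cannot be told apart.

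Columns were matched by sample title. Differences used log2(RPKM + 1). Genes needed a mean RPKM of at least 1 to be counted, and a 2-fold difference to be called. Poisson intervals on reads and Clopper-Pearson intervals on ratios, both 95%, used scipy 1.17.1. Only the ratio intervals were tested, on reads simulated with Poisson error, which cannot show how real libraries vary. Both kinds of interval cover counting error only, and without molecular identifiers reads may repeat a molecule. A library with 0 reads was given a limit of 3 reads. Scaling alternatives came from edgeR 4.0.16 and DESeq2 1.42.0 in R 4.3.3. The members, 6 Hedgehog lists and 5 marker lists were chosen with earlier results of these data known. Genes named are the members, up to 6 called genes per direction and list, genes with under 10 reads against at least 100, and the 3 nearest genes per member with at least 100 reads. Any others complete a count or, as Sufu and Kif3a, were picked with their values known. Of the listed genes 1 (Adgre1) was matched by an older symbol. Positions are from GENCODE vM21 and upstream windows from RefSeq on GRCm38.p6, which held 7 of the 9 members. Some listed genes are not reported here by name.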

Additional observations from a re-analysis of the deposited data

How the results depend on the processing

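Dhh stayed higher and Ptch1 lower in sign under every pseudocount and scaling tried, but Dhh was no longer called with a pseudocount of 5 RPKM or a filter at a mean of 5 RPKM (0 members higher). With a pseudocount of 0.1 RPKM the log2 differences were Shh -0.11, Ihh -0.53, Dhh 4.58 and Ptch1 -3.51. They were 0.0545 for Hhip, -0.998 for Gli1, 0.0704 for Gli2 and -1.01 for Gli3. Of 4 members counted 1 was then higher and 2 lower, and of 42 cilium genes 0 were higher and 13 lower. Of all 12609 genes 2050 were higher and 2444 lower. With 5 RPKM the log2 differences were Dhh 0.97, Ptch1 -1.90, Gli1 -0.0325 and Gli3 -0.36. Of 1 release gene counted 0 were lower, and of 27 relay genes 0 were higher and 3 lower. Of 42 cilium genes 0 were higher and 3 lower, and of 10 targets 1 was higher and 5 lower. Of all 12609 genes 1218 were higher and 1015 lower. As plain ratios of reads the log2 differences were Dhh 5.47, Ptch1 -3.59 and Gli3 -1.06. With at least 50 reads, 1 of 4 members was higher and 2 lower, and 3 of 5 release genes were higher and 2 lower. Of 45 cilium genes 0 were higher and 16 lower, and of 15 targets 4 were higher and 9 lower. Of all 14439 genes 2630 were higher and 3166 lower. With TMM scaling Ptch1 was -2.79, Smo -0.20 and Gli3 -0.59. Of 27 relay genes 1 was higher and 3 lower, and of 42 cilium genes 2 were higher and 6 lower. Of 11 targets 3 were higher and 4 lower, beside 2181 higher and 1551 lower of all 12600 genes. Median-of-ratios scaling gave -2.78, -0.19 and -0.59 for the same members, and the same counts for these 3 lists. Of all 12600 genes it gave 2204 higher and 1538 lower. Upper-quartile scaling gave -0.30 for Smo. It called 1 of 42 cilium genes higher and 7 lower, beside 2010 higher and 1744 lower of all 12604 genes. Without a filter 4 targets were higher. With the filter at a mean of 5 RPKM, 1 of 21 relay genes was higher and 3 lower. Of 22 cilium genes 0 were higher and 5 lower, and of 9 targets 1 was higher and 7 lower. Of all 8997 genes 1251 were higher and 1273 lower. A larger pseudocount shrinks differences of low genes by construction. The cause of the other movements was not tested.

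No paired analysis was possible because each group had 1 library, and no library was left out. Depth limits Shh, Hhip and Gli2, each with at most 2 reads in either library.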
